A study of Mus musculus with 12 samples.

Results

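The genes described here are Saa1, Saa2 and Saa3, which encode serum amyloid A proteins, Hp, which encodes haptoglobin, Orm1, which encodes orosomucoid 1, and Slpi, which encodes secretory leukocyte peptidase inhibitor. They were chosen by gene symbol, with earlier results of these data known, and their values below are therefore a description, with no test. All 6 symbols were found among the 38739 symbols of the table of normalized expression values, and 5 of them passed the filter on low values and were among the 11887 genes tested. Saa2 did not pass. Saa1 passed only through LPS libraries, and Orm1 only through the 3 cGAS-/- LPS libraries, so a high level there was a condition for their being tested.

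Expression was measured by RNA-seq in 12 libraries. Each came from mouse bone marrow-derived macrophages, which are grown in culture from marrow precursors. The WT UT and WT LPS groups came from wild-type mice and the cGAS-/- UT and cGAS-/- LPS groups from cGAS knockout mice, with 3 libraries in each group. Cyclic GMP-AMP synthase (cGAS) is the sensor that detects double-stranded DNA in the cytosol. By the methods, all mice were young adult males of C57BL/6J background and the deletion was in all cells of the knockout animals, not in macrophages alone. UT cells received medium only. The labels give 100 ng/mL of Escherichia coli LPS for 1 h, the cell wall component that is sensed by Toll-like receptor 4, whereas the methods give a higher dose for a day. Which of these applies cannot be told apart here. The legend of the study calls the libraries of a group technical replicates, so the spread below may be technical rather than between animals. The number of reads behind each value is unknown.

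Serum amyloid A, haptoglobin and orosomucoid are acute phase proteins, whose concentration in blood climbs within a day of infection or injury. The liver is their main source and is driven by interleukin 6 and interleukin 1 through STAT3, C/EBP and NF-κB factors. Saa1 and Saa2 are the hepatic forms carried on high-density lipoprotein, while mouse Saa3 is known as the form made outside the liver, by macrophages and adipocytes among others. Haptoglobin binds free haemoglobin and the complex is taken up through CD163. Orosomucoid carries small lipophilic molecules, and SLPI inhibits neutrophil elastase and related proteases and is itself made by LPS-treated macrophages.

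In the GENCODE annotation of GRCm39, the serum amyloid A genes lie in a cluster on chromosome 7, with Saa3 at 46361422 to 46365576, Saa1 at 46389916 to 46392547 and Saa2 at 46401214 to 46403737. Saa3 and Saa1 are on the minus strand and Saa2 is on the plus strand. Hp lies on chromosome 8 at 110301759 to 110305804, Orm1 on chromosome 4 at 63261052 to 63272189 and Slpi on chromosome 2 at 164195990 to 164231015. The coding sequences of Saa1 and Saa2 were 95.1% identical over 366 bases, and those of Saa1 and Saa3 were 75.1% identical. Orm1 shared 89.9% of its coding sequence with Orm2 and 86.0% with Orm3. Reads from such close copies can be divided between them, so the values of Saa1, Saa2 and Orm1 are uncertain in that respect. Orm1 and Orm2 were given the same value above 0 in 4 of the 12 libraries.

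RefSeq promoter sequences of GRCm38.p6 matched by symbol for 4 genes (Saa1, Saa2, Saa3 and Slpi) and had no entry for Hp and Orm1. The 250 bases before each start were searched on both strands for letters known from acute phase promoters. The stretches below are shown because a C/EBP-type motif, TTNNGCAA, was the 1 motif found in all 4, against 9.56% of the 32851 promoters of the table. A short NF-κB motif, GGAAANNCC, was found in Saa3 only, against 4.93% of promoters. Capitals mark the matching letters. The motif ran from -182 to -175 relative to the start in Saa1, from -183 to -176 in Saa2, from -99 to -92 in Saa3 and from -241 to -234 in Slpi, and the short NF-κB motif of Saa3 from -187 to -179. The stretches are chr7:46743144-46743173 on the minus strand (Saa1), chr7:46751639-46751668 on the plus strand (Saa2), chr7:46715757-46715786 and chr7:46715845-46715874 on the minus strand (Saa3, C/EBP and NF-κB), and chr2:164356728-164356757 on the minus strand (Slpi).
Saa1, C/EBP: ctgtgctcccaTTGCACAAtgagggagaat
Saa2, C/EBP: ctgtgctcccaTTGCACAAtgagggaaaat
Saa3, C/EBP: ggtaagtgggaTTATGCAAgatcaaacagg
Saa3, NF-κB: gccacatttctGGAAATGCCtagatggcgc
Slpi, C/EBP: gaatttgtaTTGAGCAAtaggttagagttt
The STAT motif TTCNNNGAA, the AP-1 motif TGANTCA, the TATAAA motif and the full NF-κB consensus were in 0 of the 4 windows, against 7.02%, 6.75%, 12.4% and 7.25% of all promoters. A match of letters is no evidence of a bound factor, and an absent match says only that these letters are not in the window. The windows of Saa1 and Saa2 were 94.8% identical and those of Saa1 and Saa3 48.2%, so the matches of Saa1 and Saa2 are not separate observations.

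The targeted gene Cgas lay between 1.19 and 3.25 TPM in the 6 WT libraries and between 0.0703 and 0.291 TPM in the 6 cGAS-/- libraries. WT LPS replicate 3 stood apart from the other 11 libraries. Its values summed to 709802 TPM against 447189 to 503156, the pseudogene Fth-ps3 held 31.7% of this total against 6.24% to 17.7%, and protein-coding genes held 18.5% against 39.7% to 54.4%. Means or fold changes of Saa1, Saa3, Hp, Slpi and Orm1 in WT LPS cells are therefore also given without it, and for related genes it is said where a call was lost without it. Counts of genes whose libraries do not overlap and list medians were computed with it only. The labels name neutrophils in the RNA extraction step, and knockout mice in the culture step of every sample. Listed macrophage markers averaged at least 1 TPM for 10 of 10 genes in the UT groups and in WT LPS and for 9 of 10 in cGAS-/- LPS, with Lyz2 at 15974 TPM or more in UT cells. Single markers of this list moved with LPS, and their part in the members' levels was not tested. Mrc1 was at 80.9 ± 6.58 and 7.20 ± 3.51 TPM (SD, n = 3) in WT UT and LPS cells and at 24.5 ± 1.06 and 0.938 ± 0.137 TPM in cGAS-/- cells and was called lower in both (-3.41 and -3.72, limma adjusted p = 1.89e-05 and 1.05e-05), Cd68 was called lower in cGAS-/- cells (-2.12, limma adjusted p = 0.00228), and Fcgr1 was called higher in both (2.48 and 2.13, limma adjusted p = 0.00145 and 0.00487). Between genotypes with LPS, Mrc1, C1qa and Ctss were lower in cGAS-/- cells (-1.99, -1.47 and -0.77, limma adjusted p = 0.00582, 0.0486 and 0.0229) and Lyz2 was higher (0.80, limma adjusted p = 0.0366), none past the fold threshold. Of listed neutrophil markers, Elane did not exceed 0.945 TPM in any library, while S100a9 reached 181 TPM, S100a8 165 TPM, Csf3r 49.0 TPM, Mmp8 38.7 TPM and Ngp 32.3 TPM. Of 17 listed hepatocyte markers, 10 were at 0 in every library and the highest value was 0.664 TPM, for Apoa2.

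Saa3 had the highest deposited TPM of the 6 genes in every library. It was at 76.8, 35.9 and 67.0 TPM in the WT UT libraries and at 41.0, 54.3 and 113 TPM in the cGAS-/- UT libraries. With LPS it reached 35620, 17599 and 3485 TPM in WT cells and 34006, 33309 and 34035 TPM in cGAS-/- cells. Every LPS library was above every UT library, and the WT LPS libraries spanned 10.2-fold from lowest to highest where the cGAS-/- LPS libraries spanned 1.02-fold. The mean level with LPS was 18901 ± 16107 TPM (SD, n = 3) in WT cells and 33783 ± 411 TPM in cGAS-/- cells, that is 315-fold and 486-fold over UT, and 444-fold in WT cells without replicate 3. The ratio of cGAS-/- to WT with LPS was 1.79, and 1.27 without WT LPS replicate 3. The deposited Saa3 value was 7.19%, 3.71% and 0.491% of the column sum in the WT LPS libraries and 6.62% to 6.78% in the cGAS-/- LPS libraries, against at most 0.0237% in UT cells. Since each value averages over the transcripts of its symbol and the columns do not add up to the full TPM total, these are shares of the deposited values and not of all transcripts.

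Saa1 was listed at 0 in all 6 UT libraries. With LPS it was at 22.8, 8.04 and 1.40 TPM in WT cells and at 3.81, 2.78 and 3.33 TPM in cGAS-/- cells. The WT LPS libraries lay on both sides of the cGAS-/- LPS libraries, with replicates 1 and 2 above and replicate 3 below. Their mean was 10.7 ± 11.0 TPM (SD, n = 3), and 15.4 TPM without replicate 3, against 3.31 ± 0.515 TPM in cGAS-/- cells. Saa1 was the only member whose mean with LPS was lower in cGAS-/- than in WT cells. Saa2 was likewise listed at 0 in all UT libraries and stayed low with LPS, at 0.31, 0.336 and 0 TPM in WT cells and 0.263, 0.279 and 0.498 TPM in cGAS-/- cells. Since these genes were at 0 in UT cells, no fold change over UT is given.

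**Figure D1:**
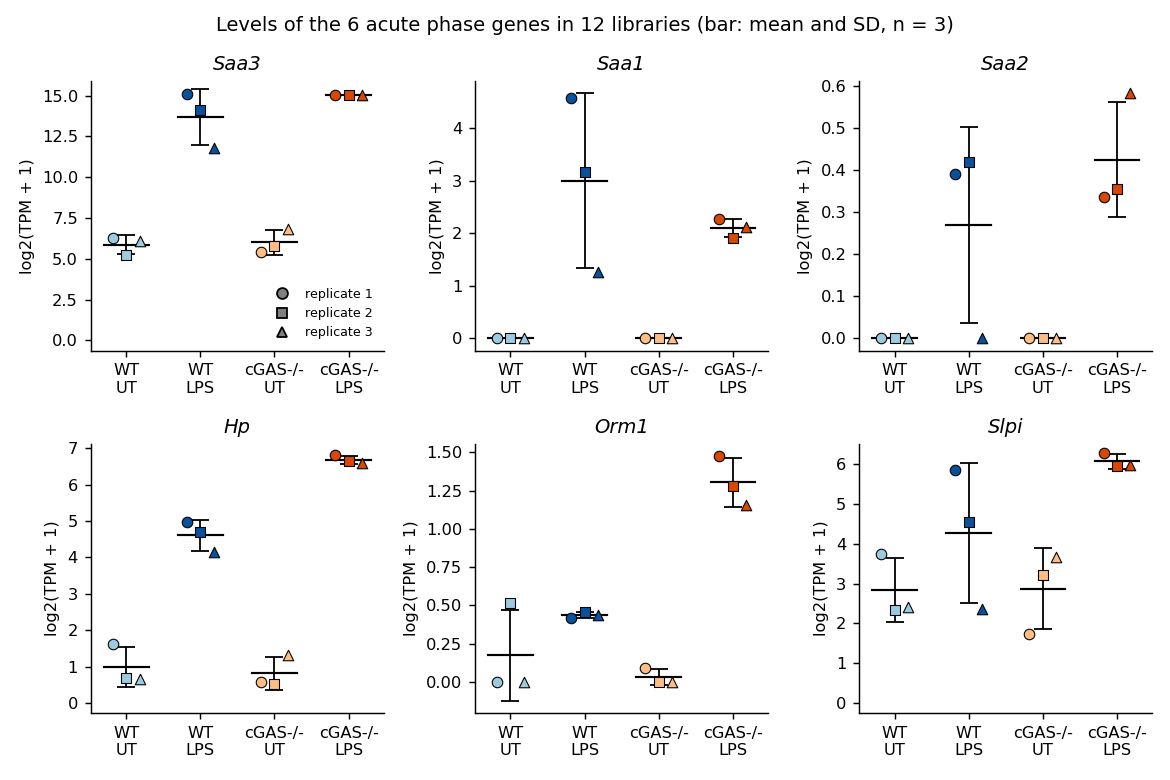
Levels of the 6 genes as log2(TPM + 1) in the 12 libraries, with a point for each library, shaped by replicate number, and the mean and SD of each group (n = 3). Saa3 was at 3485 TPM or more in every LPS library and at most 113 TPM in UT cells, and the 3 WT LPS points of Saa1, Saa3 and Slpi are spread more widely than the 3 cGAS-/- LPS points.

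Hp, the haemoglobin scavenger, was at 2.09, 0.596 and 0.587 TPM in the WT UT libraries and at 0.497, 0.449 and 1.5 TPM in the cGAS-/- UT libraries. With LPS it was at 30.4, 24.9 and 16.8 TPM in WT cells and at 111, 99.8 and 95.7 TPM in cGAS-/- cells. The LPS groups did not overlap with UT or with each other. The mean was 22.1-fold over UT in WT cells, 25.4-fold without replicate 3, and 125-fold in cGAS-/- cells, and with LPS the cGAS-/- mean of 102 ± 7.72 TPM (SD, n = 3) was 4.25 times the WT mean of 24.0 ± 6.85 TPM. Without WT LPS replicate 3 this ratio was 3.69.

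Slpi, the elastase inhibitor, was at 12.5, 4.01 and 4.28 TPM in WT UT and at 2.33, 8.28 and 11.7 TPM in cGAS-/- UT libraries. With LPS it was at 57.1, 22.4 and 4.18 TPM in WT cells and at 76.8, 61.1 and 61.4 TPM in cGAS-/- cells. In WT cells the LPS and UT libraries overlapped, because replicate 3 with LPS was within the UT range, while in cGAS-/- cells they did not. The mean with LPS was 27.9 ± 26.9 TPM (SD, n = 3) in WT cells, 39.8 TPM without replicate 3, and 66.4 ± 8.97 TPM in cGAS-/- cells. The ratio of cGAS-/- to WT was 2.38, and 1.67 without that library.

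Orm1, the lipophilic carrier, was low throughout. It was at 0, 0.431 and 0 TPM in WT UT, at 0.336, 0.373 and 0.356 TPM in WT LPS, at 0.0649, 0 and 0 TPM in cGAS-/- UT and at 1.78, 1.43 and 1.23 TPM in cGAS-/- LPS libraries. Only the cGAS-/- LPS libraries exceeded 1 TPM, and they lay above all others. Its mean with LPS was 4.18 times as high in cGAS-/- as in WT cells, with or without WT LPS replicate 3. The reads behind these low values are unknown.

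The fold changes of these genes were set in a limma fit of log2(TPM + 1) over all 12 libraries, with 11887 genes tested. A gene was called at an adjusted p below 0.05 and a log2 fold change beyond 2, and on this scale the change of low genes is understated. Because the members were chosen by name with earlier results known, their calls and log2 fold changes are given with no p, the calls beside the share of all genes called, and nothing is read from the calls. With LPS in WT cells, 3 of the 5 members tested were called higher (Saa1, Saa3 and Hp) and 0 lower, beside shares over all genes of 1.43% higher and 2.89% lower. In cGAS-/- cells, 4 were called higher (the same 3 and Slpi) and 0 lower, beside shares over all genes of 1.94% higher and 1.56% lower. The log2 fold change in WT and cGAS-/- cells was 7.80 and 9.04 for Saa3 (standard error 0.70 each), 3.62 and 5.87 for Hp (0.33), 1.44 and 3.20 for Slpi (0.78) and 0.27 and 1.28 for Orm1 (0.17). Each standard error uses a single spread per gene, pooled over all groups. For Saa3 the SD on this scale was 1.72 in WT LPS and 0.018 in cGAS-/- LPS libraries, so the pooled value describes neither group. LPS and UT libraries did not overlap, with LPS higher, at Saa3 and Hp in WT and at Saa3, Hp and Slpi in cGAS-/- cells, beside 5.31% and 15.5% of all genes. Saa1 in both genotypes and Orm1 in cGAS-/- cells did not overlap either, but both genes passed the filter only through LPS libraries, so these are not counted with the others. The calls of Saa1 with LPS, included in the counts above, are under the same condition.

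Calls in WT cells depended on the library that stood apart. Without WT LPS replicate 3, Slpi was also called higher with LPS in WT cells, at a log2 fold change of 2.38, and the values of Saa3 and Hp were 8.75 and 3.84. With LPS in WT cells the median over all genes tested was -0.46 on the log2 scale, and -0.05 after scaling by TMM factors (trimmed means of M values), under which 293 calls were higher and 138 lower in place of 170 and 344. Rescaling each library to a common total gave a median of -0.61, with 143 called higher and 459 lower. Under TMM factors the members' values were 8.56 for Saa3, 4.2 for Hp, 2.09 for Slpi and 0.45 for Orm1. In cGAS-/- cells, the call of Saa1 was lost when any UT library or any cGAS-/- LPS library was left out, and that of Slpi without cGAS-/- UT replicate 1 or any cGAS-/- LPS library, with Slpi between 2.60 and 3.59 over all alternatives. In both LPS comparisons the direction of the members was kept under each of the alternatives run.

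**Figure D2:**
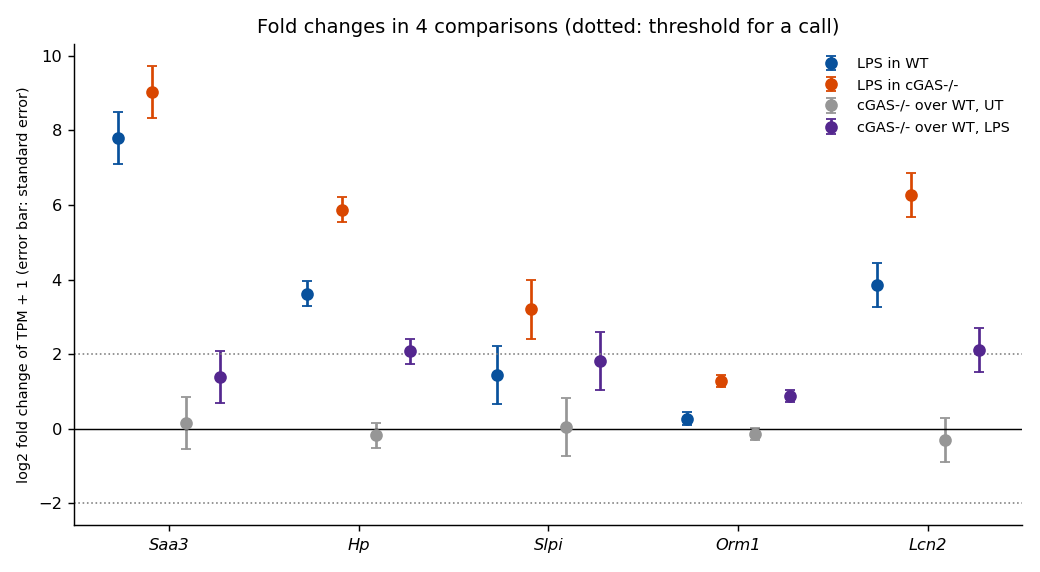
Log2 fold changes with their standard errors for Saa3, Hp, Slpi, Orm1 and, beside them, the related gene Lcn2, in 4 comparisons from 1 limma fit, with dotted lines at the threshold of 2 in either direction. The LPS points of cGAS-/- cells lie above those of WT cells at each of the 5 genes, and the points between genotypes in UT cells lie between -0.31 and 0.15.

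Between genotypes in UT cells, 0 of the 5 members were called, where 0.370% of all genes were called in either direction, and the libraries of both genotypes overlapped at each of them, where 30.5% of all genes did not overlap. In UT cells cGAS-/- over WT gave a log2 fold change of 0.15 for Saa3, -0.18 for Hp, 0.04 for Slpi and -0.14 for Orm1. With LPS, 1 of 5 was called higher in cGAS-/- cells (Hp) and 0 lower, and the shares over all genes were 0.278% higher and 0.337% lower. Hp and Slpi did not overlap between genotypes with LPS, beside 17.7% of all genes in either direction. Orm1 did not overlap either, but it passed the filter through the cGAS-/- LPS libraries alone. The values were 2.08 for Hp, 1.81 for Slpi, 1.38 for Saa3, 0.87 for Orm1 and -0.91 for Saa1, on the log2 scale. Without WT LPS replicate 3 they were 1.85, 0.86, 0.43, 0.87 and -1.77, and Hp was no longer called. Its call was also lost without cGAS-/- LPS replicate 1, at 2.02, and under TMM factors, at 1.71.

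The difference between the LPS effects of both genotypes is the direct comparison of how strongly each responded. It was 2.25 for Hp (standard error 0.47), 1.76 for Slpi (1.11) and 1.23 for Saa3 (0.99), with the larger change in cGAS-/- cells. For Orm1, which was tested only because it was high in cGAS-/- LPS cells, it was 1.01 (0.24), and nothing is read from it. For Saa1, at 0 in all UT libraries, it equals the value with LPS above. None of the 5 was called, where 0.404% of all genes were called in either direction. Without WT LPS replicate 3 the difference fell to 0.29 for Saa3 and 0.82 for Slpi, while Hp, at 2.03, was then called.

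Levels relative to Saa3 within the same library do not depend on how the library was scaled, and they separated the members. Per 10000 TPM of Saa3, Saa1 was at 6.40, 4.57 and 4.03 TPM in the WT LPS libraries and at 1.12, 0.835 and 0.978 TPM in the cGAS-/- LPS libraries. WT LPS replicate 3 is thus like the rest of its group in this ratio, although its own levels of both genes were the lowest of the group. The mean ratio was 5.00 ± 1.24 (SD, n = 3) in WT and 0.978 ± 0.143 in cGAS-/- cells. Slpi per 1000 TPM of Saa3 went the other way, with 1.6, 1.27 and 1.2 TPM in WT LPS and 2.26, 1.83 and 1.80 TPM in cGAS-/- LPS libraries. Hp per 1000 TPM of Saa3 overlapped between genotypes, at 0.854, 1.41 and 4.82 TPM in WT LPS and 3.25, 3.0 and 2.81 TPM in cGAS-/- LPS libraries. Orm1 per 100000 TPM overlapped too, at 0.943, 2.12 and 10.2 TPM against 5.25, 4.30 and 3.62 TPM. Each deposited value averages over the transcripts of a symbol, so such a ratio compares libraries and does not give the relative amounts of the genes. Reads shared with Saa2 were not separated from those of Saa1.

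**Figure D3:**
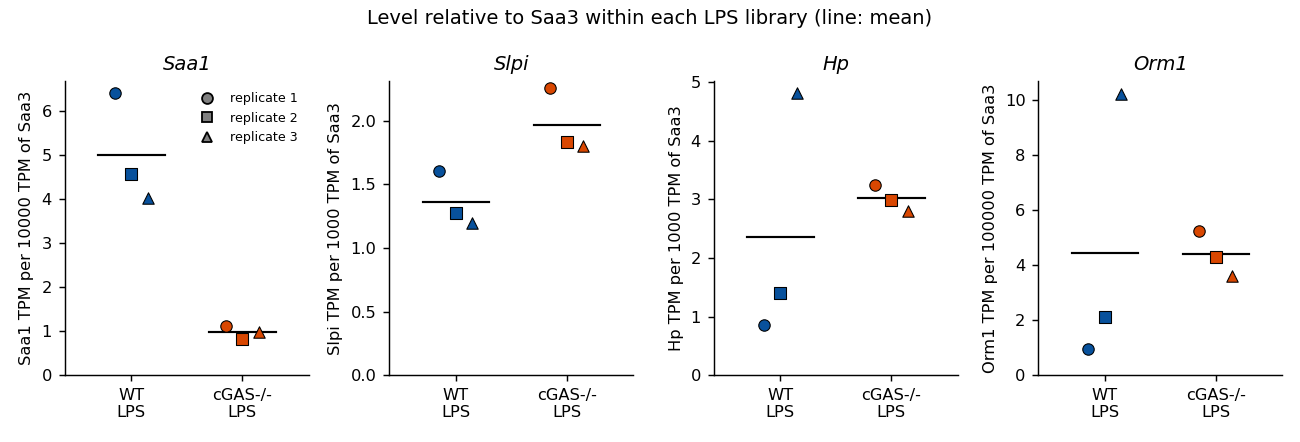
TPM of Saa1, Slpi, Hp and Orm1 per fixed TPM of Saa3 in each of the 6 LPS libraries, with points shaped by replicate and lines at group means. The 3 WT points of Saa1 lie at 4.03 or more and the 3 cGAS-/- points at 1.12 or less, while Hp and Orm1 overlap because of WT LPS replicate 3.

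Within groups, the members tended to be high or low in the same libraries. WT LPS replicate 1 was the highest of its group at 4 of 5 members and replicate 3 the lowest at 4 of 5. Replicate 1 of WT UT and replicate 3 of cGAS-/- UT were each the highest of their group at 3 of 5, at Saa3, Hp and Slpi. The granule genes S100a8 and S100a9, listed as neutrophil markers and also made by monocytes, were high in those libraries as well. S100a8 was at 73.1, 38.9 and 37.5 TPM in WT UT, 165, 33.2 and 8.43 TPM in WT LPS, 21.5, 27.7 and 50.1 TPM in cGAS-/- UT and 29.1, 23.3 and 26.9 TPM in cGAS-/- LPS libraries. Saa1, Saa3, Hp, Slpi and Lcn2 were in the same order of libraries as S100a8 in the WT LPS group. In the cGAS-/- LPS libraries, where Slpi and Hp were highest, S100a8 was within the range of the UT libraries, and S100a9, at 17.6 to 26.8 TPM, was below every UT library. Other markers of the list moved otherwise. Camp was at 0.217 ± 0.375 TPM (SD, n = 3) in cGAS-/- UT and 3.89 ± 1.09 TPM in cGAS-/- LPS cells and was called higher (2.02, limma adjusted p = 0.0112), and Mmp8 rose from 15.3 ± 1.16 to 31.1 ± 4.2 TPM without passing the fold threshold (0.97, limma adjusted p = 0.0264). In WT cells Ngp and Chil3 were called lower with LPS (-2.26 and -2.24, limma adjusted p = 0.00339 and 0.00028), and Csf3r rose without passing the fold threshold (1.42, limma adjusted p = 0.00229). These marker calls were not recomputed under the alternatives. The summed level of the 13 listed neutrophil markers was 180 to 248 TPM in WT UT, 92.0 to 404 in WT LPS, 86.7 to 158 in cGAS-/- UT and 99.3 to 126 in cGAS-/- LPS cells, S100a8 and S100a9 included, with Fcnb and Prtn3 at 0 throughout WT LPS, Elane at 0 throughout cGAS-/- UT and Fcnb at 0 throughout cGAS-/- LPS. Markers of other cell types also moved with the groups. The 6 listed adipocyte markers summed to 84.9 to 88.9 TPM in WT UT and 80.4 to 98.8 TPM in cGAS-/- UT libraries, and to 6.17 to 27.2 and 6.14 to 7.41 TPM with LPS, with Lep at 0 in every library. Fabp4, at 78.2 ± 2.57 and 76.1 ± 10.8 TPM (SD, n = 3) in WT and cGAS-/- UT cells, and Pparg, at 8.54 ± 0.587 and 10.8 ± 0.622 TPM, carried this sum, and macrophages also express both. Plin1, Cfd and Cidec did not exceed 0.315 TPM. The 8 listed B cell markers summed to 110 to 135 TPM in WT UT and 20.4 to 29.2 TPM in cGAS-/- UT libraries, and to 30.8 to 45.8 and 3.32 to 9.28 TPM with LPS. Igkc, with means of 81.7 and 6.65 TPM in WT and cGAS-/- UT cells, and Ighm, with 38.8 and 17.7 TPM, carried most of this sum. Fibroblast markers summed to at most 18.8 TPM and epithelial markers to at most 0.413 TPM in any library. The part of these cells in the members' levels was not tested. In bulk samples, a different number of cells of a type and a different amount of RNA per cell cannot be told apart.

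Other acute phase genes were mostly at low levels. Of 35 named, 30 were listed and 8 were tested, and of the 22 listed but not tested 10 were at 0 in every library. Counts of called genes in this and the following lists are to be read beside the shares of all genes called with LPS, 1.43% higher and 2.89% lower in WT and 1.94% and 1.56% in cGAS-/- cells. Of the 8, 2 were called higher with LPS in WT cells (Lcn2 and Il1rn) and 3 in cGAS-/- cells (Lcn2, Cp and Il1rn), and 0 were called lower in either. The median log2 fold change of the 8 was 0.04 in WT and 0.64 in cGAS-/- cells, against -0.46 and -0.20 for all genes tested. The 8 include Saa4 and Cp, which would not have passed the filter without LPS libraries. The call of Cp and these medians are therefore no support for the list. Lcn2, which encodes lipocalin 2, a protein that withholds iron from bacteria, was at 8.71, 3.71 and 3.35 TPM in WT UT, 126, 93.6 and 49.1 TPM in WT LPS, 0.904, 3.89 and 10.3 TPM in cGAS-/- UT and 377, 348 and 366 TPM in cGAS-/- LPS libraries. LPS raised it by 3.85 on the log2 scale in WT (standard error 0.58, limma adjusted p = 0.000853) and by 6.27 in cGAS-/- cells (limma adjusted p = 3.44e-05). Between genotypes with LPS it was 2.11 with a limma adjusted p of 0.104, which did not pass, although the 3 cGAS-/- libraries lay above the 3 WT libraries.

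Il1rn, the interleukin 1 receptor antagonist, went the opposite way between genotypes. It was at 156, 298 and 540 TPM in WT LPS libraries, the highest in the replicate in which most members were lowest, and at 66.6, 64.3 and 64.4 TPM in cGAS-/- LPS libraries. It rose with LPS by 4.08 on the log2 scale in WT (limma adjusted p = 3.36e-05) and by 3.14 in cGAS-/- cells (limma adjusted p = 0.000234), and was lower in cGAS-/- LPS cells by a log2 fold change of -2.15 (limma adjusted p = 0.0168), a call that was lost without WT LPS replicate 3 and under 5 further alternatives. Cp, the ferroxidase ceruloplasmin, was at 0.648 ± 0.308 and 4.47 ± 1.90 TPM (SD, n = 3) in WT UT and LPS cells and at 0.0818 ± 0.0204 and 8.93 ± 0.109 TPM in cGAS-/- cells. Saa4 stayed at 1.17 TPM or below, Orm2 at 1.29 TPM or below, and Orm3 was above 0 in 2 cGAS-/- LPS libraries only. Saa4 passed the adjusted p in cGAS-/- cells (0.70, limma adjusted p = 0.0298) but not the fold threshold, and like Cp it would not have passed the filter without LPS libraries. Hpx, the haem-binding partner of haptoglobin in plasma, was at 0.319 TPM or below.

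Among 11 tested cytokines and receptors known to drive acute phase genes, 2 were called higher with LPS in WT cells (Il1a and Il1b) and 4 in cGAS-/- cells (Il6, Il1a, Il1b and Csf3), with 0 called lower. Il1b was at 127, 156 and 45.4 TPM in WT LPS and at 915, 771 and 856 TPM in cGAS-/- LPS libraries, from at most 8.24 TPM in UT cells. It was higher in cGAS-/- than in WT cells with LPS by 3.11 on the log2 scale (standard error 0.50, limma adjusted p = 0.00907), with no overlap of libraries. Il6, the main inducer of hepatic acute phase genes, was at 1.07, 0.772 and 0.559 TPM in WT LPS and at 14.8, 12.5 and 15.5 TPM in cGAS-/- LPS libraries. It was higher in cGAS-/- than in WT cells with LPS by 3.09 (standard error 0.16, limma adjusted p = 4.24e-06). The call of Il6 between genotypes was lost with a pseudocount of 5 and when only the 6 LPS libraries were fitted, and that of Il1b with sample weights, in those 6 libraries and without cGAS-/- LPS replicate 1. The median over the list, Il6 and Csf3 included, was 0.71 with LPS in WT and 1.45 in cGAS-/- cells, beside -0.46 and -0.20 for all genes tested. The value of 0.71 is that of Il6 itself. Osm, a cytokine of the interleukin 6 family, was not called in any comparison and lay between 0 and 3.17 TPM. Il6 and Csf3 passed the filter only through LPS libraries, and neither would have passed without the cGAS-/- LPS libraries. Their higher level with LPS, and in cGAS-/- LPS cells, was thus a condition for their being tested. Their calls with LPS, the call of Il6 between genotypes and the list medians are therefore no support for the list. Csf3 was listed at 0 in all WT UT libraries and reached 3.19, 2.12 and 0 TPM with LPS, and 8.04, 5.40 and 5.48 TPM in cGAS-/- LPS libraries.

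Of 13 tested transcription regulators of acute phase promoters, 1 was called higher (Socs3) and 2 lower (Cebpa and Maz) with LPS in WT cells, and 2 were called higher (Socs3 and Nfkbia) and 1 lower (Cebpa) in cGAS-/- cells. The medians were -0.43 and 0.52, the former near that of all genes in WT cells, -0.46, and the latter beside -0.20. Of 3 tested C/EBP factors, whose motif is printed above, only Cebpa was called. Cebpa fell from 74.7 to 83.3 TPM in WT UT to 8.93, 10.3 and 0.763 TPM with LPS and from 76.4 to 98.8 TPM in cGAS-/- UT to 9.33, 11.0 and 8.52 TPM with LPS, by log2 fold changes of -3.75 and -3.06 (limma adjusted p = 0.000789 and 0.00352). Cebpb was at 678, 669 and 234 TPM in WT LPS and 628, 585 and 640 TPM in cGAS-/- LPS libraries, from 120 to 199 TPM in UT cells, with log2 fold changes of 1.76 and 1.78 that passed the adjusted p (limma, 0.0053 and 0.00662) and not the fold threshold. Cebpg was at -0.84 and -0.72 on the log2 scale (limma adjusted p = 0.116 and 0.281). Socs3, the feedback inhibitor of STAT3 signalling, rose by 4.77 in WT and 6.08 in cGAS-/- cells (limma adjusted p = 7.18e-06 and 1.34e-06). Stat3 and Nfkb1 were not called in any comparison. Maz lost its call without WT LPS replicate 3 or any WT UT library. Between genotypes, 0 of the 13 were called with LPS, which is near the shares over all genes of 0.278% higher and 0.337% lower.

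Of 15 tested receptors and binding partners of these proteins, 0 were called higher and 1 lower (Lrp1) with LPS in WT cells, and 2 higher (Tlr2 and Mmp9) and 0 lower in cGAS-/- cells. The medians were -0.66 and -0.05, beside -0.46 and -0.20 for all genes. The counts of this list in WT cells are near the shares over all genes. Lrp1, a scavenger receptor for haem and protease complexes, lost its call without WT LPS replicate 3 and under TMM factors. Mmp9, the gelatinase whose protein is bound by lipocalin 2, was at 2.84 to 4.09 TPM in WT UT, 4.18, 4.06 and 0.74 TPM in WT LPS, 0.465 to 0.766 TPM in cGAS-/- UT and 51.8, 48.9 and 47.6 TPM in cGAS-/- LPS libraries. It was higher in cGAS-/- than in WT cells with LPS by 3.82 (standard error 0.36, limma adjusted p = 0.000319). Cd163, the receptor for haptoglobin and haemoglobin, did not exceed 1.12 TPM and its log2 fold change with LPS was -0.66 in WT (limma adjusted p = 0.00967) and 0.20 in cGAS-/- cells (limma adjusted p = 0.47), neither past the fold threshold. Of the partners of SLPI, Grn, the progranulin it protects from cleavage, was at 137 to 336 TPM and was not called.

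Among 11 tested antiproteases and relatives of Slpi, 2 were called higher with LPS in WT cells (Cst7 and Serpinb2) and 0 lower, and 3 higher (Wfdc21, Cst7 and Serpinb2) and 2 lower (Serpinb6a and Timp2) in cGAS-/- cells. Serpinb6a lost its call without cGAS-/- UT replicate 1 or cGAS-/- LPS replicate 1 or 3. Wfdc17, like SLPI a whey acidic protein domain protein, was at 88.1 ± 5.29 and 244 ± 181 TPM (SD, n = 3) in WT UT and LPS cells and at 109 ± 6.78 and 280 ± 20.3 TPM in cGAS-/- cells, and was not called in either LPS comparison (1.09 and 1.36, limma adjusted p = 0.131 and 0.118). Wfdc21, which shares the whey acidic protein domain with SLPI, was at 3.29, 9.14 and 1.38 TPM in WT LPS and 30.2, 24.7 and 31.0 TPM in cGAS-/- LPS libraries. With LPS it rose by 3.32 in cGAS-/- cells (limma adjusted p = 0.00581), and its change in WT cells was 0.37 (standard error 0.66). Serpinb2, a serpin that inhibits urokinase, was at 11.4, 16.4 and 3.84 TPM in WT LPS and at 48.2, 36.2 and 38.6 TPM in cGAS-/- LPS libraries. It would not have passed the filter without LPS libraries, so its calls with LPS are no support for the list. Its log2 fold change between genotypes was 2.04 (limma adjusted p = 0.0241), a call lost under 11 of 21 alternatives, among them without WT LPS replicate 3 and without each cGAS-/- LPS library. Cst7, a cathepsin inhibitor, was lower in cGAS-/- LPS cells, with a log2 fold change of -1.63 (limma adjusted p = 0.0197), without passing the fold threshold. The medians of the list with LPS were -0.18 in WT and -0.09 in cGAS-/- cells, beside the same -0.46 and -0.20. Without WT LPS replicate 3, the number called with LPS in WT cells was 2 of the acute phase genes, 3 of the cytokines and receptors, 4 of the transcription regulators, 0 of the receptors and partners and 2 of the antiproteases.

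**Figure D4:**
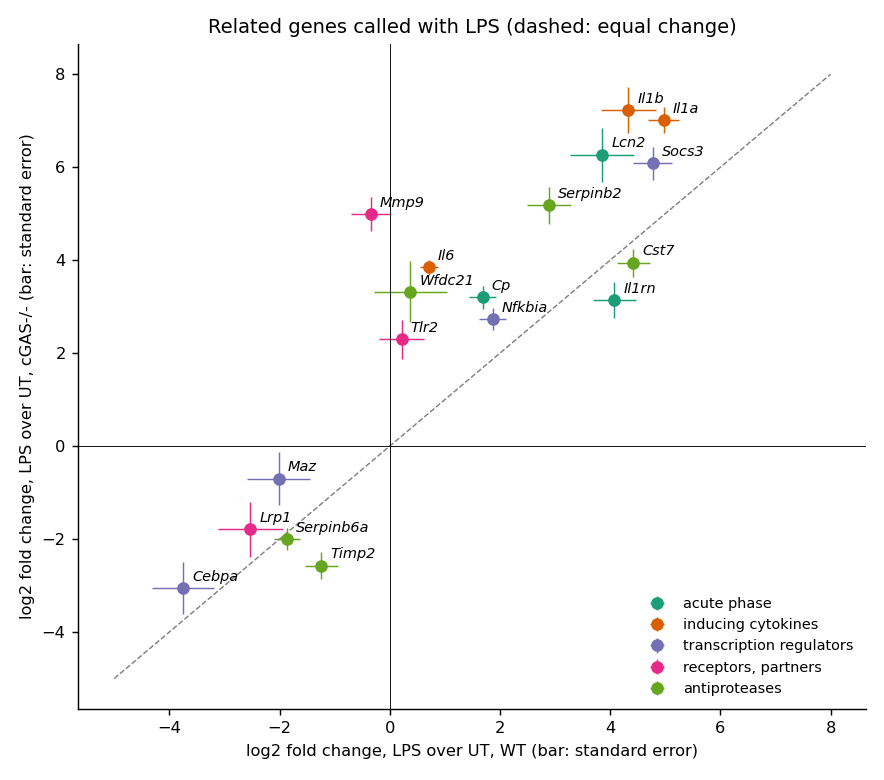
Log2 fold change with LPS in WT cells against that in cGAS-/- cells, with standard errors, for the listed related genes called in at least 1 of both, without Csf3, which was at 0 in WT UT cells. Il1a, Il1b, Lcn2 and Socs3 are at the top right and Cebpa is at the bottom left, and Mmp9, Il6, Wfdc21 and Tlr2 lie between -0.34 and 0.71 in WT and at 2.30 or more in cGAS-/- cells.

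Of 53 annotated neighbours within 100 kb of a member, 40 were listed and 21 were tested. Of these, 0 were called with LPS in WT cells and 1 was called in cGAS-/- cells, where Saa-ps, a transcribed pseudogene between Saa4 and Saa1, was called higher. Over all genes tested, 1.43% were called higher and 2.89% lower in WT and 1.94% and 1.56% in cGAS-/- cells, so that with 21 neighbours these counts are near the background and are no result about the neighbourhood. Saa-ps was at 0 in all UT libraries, at 6.40, 2.66 and 0 TPM in WT LPS and at 2.12, 8.61 and 2.93 TPM in cGAS-/- LPS libraries. It passed the filter only through LPS libraries, so a higher level with LPS was a condition for its being tested. It resembles the functional genes, so its reads may be shared with them. Its call was lost under 7 of 21 alternatives, among them without each cGAS-/- UT library and without cGAS-/- LPS replicate 2 or 3. The median log2 fold change of the 21 was -0.18 in WT and 0.18 in cGAS-/- cells. Saal1 and Hps5, on either side of the cluster, changed by -0.18 and -0.31 in WT and by -0.11 and -0.01 in cGAS-/- cells. Beside Slpi, Sdc4, the heparan sulphate proteoglycan syndecan 4, passed the adjusted p in both genotypes (0.84 and 1.46, limma adjusted p = 0.0134 and 0.000692) and not the fold threshold. Ldha, at the edge of the serum amyloid A window, passed it in cGAS-/- cells (1.37, limma adjusted p = 0.018).

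**Figure D5:**
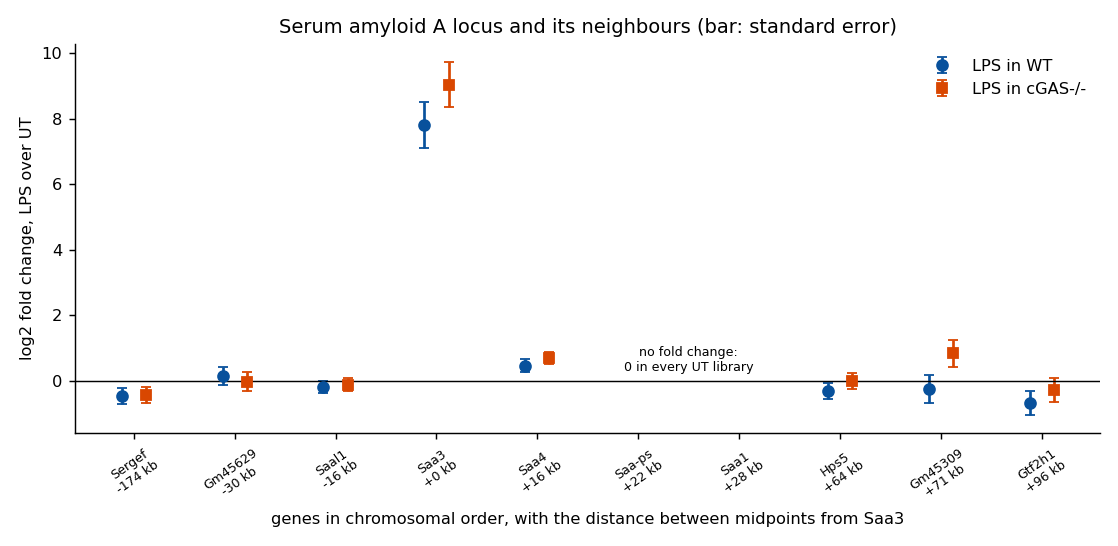
Log2 fold change with LPS, with standard errors, of the tested genes within 100 kb of Saa3, in chromosomal order with the distance of each midpoint from that of Saa3 in kb. Saa3 is at 7.80 in WT and 9.04 in cGAS-/- cells, and apart from Saa1 and Saa-ps, which have no fold change because they were at 0 in UT cells, the neighbours lie between -0.67 and 0.84.

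The genes whose levels most resembled each member over the 12 libraries were ranked by Pearson's r of log2(TPM + 1), which mostly follows the split between UT and LPS groups and is given with no test. For Saa3 they were Socs3 (r = 0.99), Ccl5 (0.988) and Nfkbia (0.987), and for Hp Nfkbia (0.994), Il1b (0.992) and Il1a (0.99). For Slpi they were the chemokine Cxcl2 (0.953), Upp1 (0.944) and the chemokine Ccl3 (0.94). For Saa1 they were Sirpb1a (0.988), Il18bp (0.976) and Isg20 (0.976), which shared its lower mean in cGAS-/- than in WT LPS cells. Isg20, an interferon-induced exonuclease, was at 38.7 ± 29.99 TPM (SD, n = 3) in WT LPS and 12.8 ± 1.39 TPM in cGAS-/- LPS cells, and Il18bp, the interleukin 18 binding protein, at 38.4 ± 28.5 and 9.94 ± 0.954 TPM. These groups overlapped, since WT LPS replicate 3 was at 4.10 TPM for Isg20 and 6.14 TPM for Il18bp. For Orm1 the most similar genes were Dner (0.956), Tmc3 (0.953) and Il6 (0.947). Among the members themselves, Hp and Saa3 had r = 0.975, Saa1 and Saa3 0.89, and Orm1 and Saa1 0.516, over the same 12 libraries.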

How the data were processed

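RNA from 12 libraries was mapped to GRCm39 with STAR and quantified with Kallisto, and fastp is among the tools of the submitters' processing notes (versions not given in the sources used here). The authors deposited 1 normalized value per symbol and library, read here as TPM averaged across a symbol's transcripts, a unit inferred from the values. Genes such as Tnf, Cebpd and Rela are not analysed here. Of 38739 symbols, 35599 matched the GENCODE vM39 annotation. Genes at 1 TPM or more in at least 3 of 12 libraries, each rescaled to a total of 1000000 for the filter only, were kept (11887). Limma 3.58.1 in R 4.3.3 was fitted to log2(TPM + 1) with a mean per group over all libraries and a variance trend. Calls needed a Benjamini-Hochberg adjusted p below 0.05 and an absolute log2 fold change above 2. No tool for counts was run. The fit was also run on simulated data to check the code, which says nothing about the calls given here.

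The members and gene lists were chosen with earlier results of these data known. Groups followed the genotype and treatment labels. Named genes were the members, Cgas, list genes called in any comparison or tied to a member by known function, the 3 genes most similar to each tested member, tested neighbours within 100 kb, and markers of other cell types. Alternatives were other pseudocounts, filters and scalings, sample weights, a replicate block, the 6 libraries compared alone, and each library left out.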

Additional observations from a re-analysis of the deposited data

Results flagged for a closer look

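The response to LPS differed between genotypes by the limma interaction term at 3 of the related genes, and at 0 of the 5 members tested. The related lists held 8, 11, 13, 15 and 11 tested genes. Over all genes tested, 0.404% were called in either direction. The 0 of 5 is near that share and is no contrast with the lists. The difference of the log2 fold changes, cGAS-/- minus WT, was 5.34 for Mmp9 (standard error 0.51, limma adjusted p = 0.000949), 3.14 for Il6 (0.23, limma adjusted p = 0.000288) and 2.05 for Il1a (0.40, limma adjusted p = 0.0438). Mmp9 was called under 20 of 20 alternatives and Il6 under 19 of 20. Il1a was called under 2 of 20, with a filter of 5 TPM and without WT LPS replicate 2, and lost its call when any other library was left out. Il6 passed the filter on low values only through LPS libraries, and would not have passed without the cGAS-/- LPS ones. Its high level there was a condition for its being tested, and nothing is read from its call. At Mmp9 and Il6 the 3 cGAS-/- LPS libraries lay above the 3 WT LPS libraries.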

How the results depend on the processing

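All counts here are of genes called among those tested, and the values in the report come first. With a pseudocount of 0.1 and of 5, the counts were 1415 and 173 for LPS in WT cells (514 in the report), 776 and 179 for LPS in cGAS-/- cells (416), 75 and 18 between genotypes in UT cells (44), 117 and 35 between genotypes with LPS (73), and 31 and 24 for the difference of the LPS effects (48). Between genotypes with LPS, 48 were called without a filter and 5 when only the 6 LPS libraries were fitted. Leaving out 1 library gave 443 to 825 calls for LPS in WT cells, 379 to 427 for LPS in cGAS-/- cells, 40 to 52 between genotypes in UT cells, 37 to 214 with LPS and 29 to 212 for the difference, where 825, 214 and 212 came without WT LPS replicate 2. The cause of these shifts was not tested. Of 104 alternatives of these counts, 83 stayed within 1.5 times the reported count. The share of LPS calls in WT cells that were higher moved from 33.1% to 68.0% under TMM factors. Sample weights gave WT LPS replicate 3 a weight of 0.0352, against 0.159 to 2.57 for the other libraries.

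Among the members, Saa3 and Hp were called with LPS under 21 of 21 alternatives in both genotypes, Saa1 under 19 in WT and 9 in cGAS-/- cells, and Slpi under 1 in WT, without WT LPS replicate 3, and 16 in cGAS-/- cells. Hp between genotypes with LPS kept its call under 14 of 21. Same-numbered libraries did not deviate together, with correlations of -0.03 to 0.04 over 18 pairs, so the numbers were taken as names. A replicate block gave 515, 415, 44, 64 and 37 calls in the order above and changed no call of a member, and among the related genes it ended the call of Il1a for the difference of the LPS effects. Depth is unknown, so the reads behind levels under about 1 TPM, as at Orm1 and Saa2, cannot be stated.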
